A study of Homo sapiens with 5 samples.

Results

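The S100 genes encode small calcium-binding proteins, and 8 of them that fibroblast-like cells are known to express were taken from the probe annotation of the array: S100A2, S100A3, S100A4, S100A6, S100A10, S100A11, S100A13 and S100A16. All probes annotated to these symbols were kept. They numbered 9 of the 14747 probes with a deposited value and covered 6 genes, with 3 probes for S100A13, 2 for S100A10 and 1 each for S100A3, S100A6, S100A11 and S100A16. S100A2 and S100A4 had no probe among the values used here and were dropped. S100PBP, which carries the S100 prefix in its symbol, encodes a protein that binds S100P and is not a member of the family, so its probes were left out.

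S100 proteins are built around a pair of EF-hands, the helix-loop-helix motifs that hold calcium, and most work as dimers that open a binding surface for a partner protein when calcium rises. They have no enzymatic activity of their own. Much of their biology lies in their partners, which include annexins at membranes and components of the cytoskeleton, and several S100 proteins are also released from cells. All 8 genes lie on chromosome 1. Per the RefSeq gene table, S100A10 and S100A11 stand near one another, apart from the group formed by S100A6, S100A4, S100A3, S100A2, S100A16 and S100A13.

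The samples came from LX-2, a human line of hepatic stellate cells, the cell type that lays down matrix in liver fibrosis. All cells received 50 pmol of a duplex of miR-25-3p tagged with biotin and were lysed after 24 hours, Control samples included. In 3 samples (PD miR-25) streptavidin beads were used to pull the duplex and its bound RNA out of the lysate, and in 2 samples (Control) the total lysate was measured. The naming of the Control samples as total lysate comes from the series' design text and from the methods in the paper. The protocol text of the Control samples repeats the bead step. No sample was captured with another duplex or with bare beads, so capture by miR-25-3p and other retention on the beads cannot be told apart. The natural miRNA is shown because its seed defines what the pull-down was meant to capture. The tagged strand described by the study is longer at its 3′ end and is not printed. The mature sequence in RefSeq (GRCh38.p14, chr7:100093571-100093592, minus strand) is printed 5′ to 3′ with the seed, bases 2 to 8, in capitals:
hsa-miR-25-3p: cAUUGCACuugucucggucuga
The seed pairs with GUGCAAU in a target RNA. It is shared by 6 mature human miRNAs of the table, miR-25-3p, miR-32-5p, miR-363-3p, miR-367-3p, miR-92a-3p and miR-92b-3p. Whether the S100 transcripts hold such a site was not examined.

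Values are normalized expression on a log2 or log2-like scale, 1 per probe and array. Array medians lay between 9.01 and 9.02 in the pull-down and between 9.01 and 9.03 in Control. The highest values lay between 14.57 and 14.71 in the pull-down and between 14.61 and 14.76 in Control. The lowest values differed by group, at 7.76 to 7.77 in the pull-down and 7.57 on each Control array. Markers of hepatic stellate or fibroblast-like cells were measured for 11 of 13 genes listed, 6 of them in the brightest 25% of all probes. Their mean value was 9.76 to 10.79 over the pull-down arrays and 10.47 to 10.79 over the Control arrays, and limma called 0 of the 11, where it called 14.7% of all probes. Of the markers of hepatocytes, endothelial cells, macrophages and other epithelial cells, 6 of 28 genes had a probe among the values used here and limma called 0 of them. Of these, 3 lay in the dimmest 25% of all probes and 1, CD68, in the brightest 25%.

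**Figure D1:**
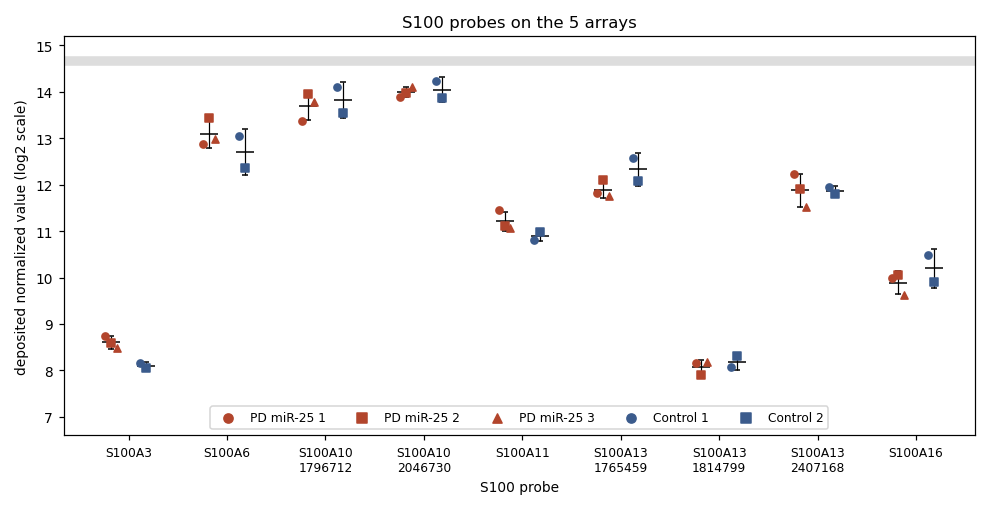
Deposited normalized values (log2 or log2-like, y axis) of the 9 S100 probes (x axis) on the 5 arrays. Red marks the 3 PD miR-25 arrays and blue the 2 Control arrays. Black bars are the group mean ± SD and the grey band spans the highest values of the 5 arrays, 14.57 to 14.76. The groups are apart for S100A3 and S100A11 and overlap for the other 7 probes.

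The comparison of pull-down with Control asks which mRNAs were captured with the bait. No S100 gene passed the test. At a Benjamini-Hochberg adjusted p under 0.05, limma called 0 of the 9 higher and 0 of the 9 lower in the pull-down, where it called 14.7% of all probes, 7.64% higher and 7.09% lower. With a change of at least 2-fold as well, it called 2.81% of all probes higher and 3.09% lower. At an unadjusted p under 0.05 it marked 1 of the 9, the probe of S100A3, against 31.7% of all probes. Log2 fold changes, given throughout as pull-down minus Control, ran from -0.44 (S100A13) to 0.50 (S100A3) with a median of -0.05, and the median of all probes was 0.04. Group membership follows the sample titles, and genes that the study named as captured are lower on its pull-down arrays in these values. A probe of NOTCH2NLA (the study's NOTCH2NL) gave -1.305 (limma adjusted p = 0.0299). One of FKBP14 gave -0.25 (limma adjusted p = 0.387) and was not called. The direction used here therefore opposes that of the study. Whether the sample titles or the study's comparison are reversed was not tested, so every sign here rests on the titles. The sign was above 0 for 4 of the 9 S100 probes, against 54.6% of all probes. The 4 were those of S100A3, S100A6, S100A11 and 1 of S100A13. Nearly equal quartiles were imposed on all arrays by normalization, so each difference is relative to the other probes on the array.

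The intervals show how large a difference could have been missed. For 8 of the 9 probes the 95% interval lay inside a 2-fold change in both directions, as it did for 74.6% of all probes. S100A6 was the exception, with an interval from -0.28 to 1.06. The interval contained 0 for 8 of the 9 probes, all but that of S100A3. The groups did not overlap for 2 of the 9 probes, those of S100A3 and S100A11, with the pull-down higher in both. The groups did not overlap for 51.5% of all probes, and for 29% of them with the pull-down higher.

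**Figure D2:**
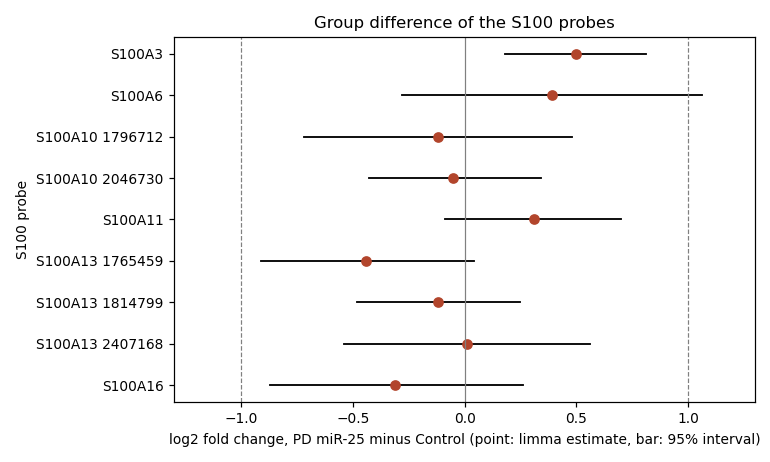
Log2 fold change, PD miR-25 minus Control (x axis), of the 9 S100 probes (y axis); points are limma estimates, bars the 95% intervals, and dashed lines a 2-fold change. Only the bar of S100A3, from 0.18 to 0.81, stays clear of 0, and only that of S100A6 crosses a dashed line.

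S100A10, also called p11, has lost the ability to bind calcium and is held in an active shape. It forms a complex with annexin A2 beneath the plasma membrane, where it helps bring channels and plasminogen to the cell surface. Its brighter probe (ILMN_2046730) measured 13.90, 13.98 and 14.11 on the pull-down arrays and 14.24 and 13.86 on the Control arrays. The Control values enclosed all 3 pull-down values, and the log2 fold change was -0.05 (SE 0.16, limma adjusted p = 0.859). The other probe (ILMN_1796712) measured 13.37, 13.95 and 13.79 in the pull-down and 14.10 and 13.55 in Control. The groups overlapped here as well, with pull-down array 1 lowest and Control array 1 highest, and the log2 fold change was -0.12 (SE 0.24, limma adjusted p = 0.768). The annotation assigns both probes to the same transcript. Their difference on an array, second probe minus brighter probe, averaged -0.30 in the pull-down and -0.22 in Control, and a two-sided exact permutation test gave p = 0.8, where 0.1 is the smallest p that 3 and 2 arrays allow.

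S100A10 was the one gene with a probe near the top of the scale. A probe was marked when it lay within 0.5 of the highest value of its array on at least 1 array, since it can then hardly show a rise. ILMN_2046730 was within that distance on 2 arrays, at 0.46 on pull-down array 3 and 0.37 on Control array 1. Just outside was ILMN_1796712, at 0.51 on Control array 1. The next S100 probe, that of S100A6, came no closer than 1.27. Of all probes, 345 (2.34%) were marked, and limma called 28.7% of these, with log2 fold changes from -3.24 to 1.89. A changed probe can be marked through its higher group alone, so this share does not show that probes near the top can record a change. In the highest 1% of probes by mean value, which holds no S100 probe, limma called 1.35% higher and 1.35% lower. Position on the scale also reflects how well a probe hybridizes, so it is not read here as the abundance of S100A10.

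S100A6, or calcyclin, is found in proliferating cells and fibroblasts and binds the calcyclin-binding protein CACYBP and annexin A11. Its probe measured 12.87, 13.44 and 12.98 in the pull-down and 13.06 and 12.36 in Control. Control array 2 was lowest, while Control array 1 lay between the pull-down values. The means were 13.10 ± 0.30 on pull-down arrays (SD, n = 3) and 12.71 ± 0.50 on Control arrays (SD, n = 2), a log2 fold change of 0.39 (SE 0.27, limma adjusted p = 0.381). This difference moved with single arrays: it was 0.74 without Control array 1 and 0.04 without Control array 2.

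S100A11, or calgizzarin, binds annexin A1 and takes part in membrane repair and growth control. Its probe measured 11.45, 11.10 and 11.07 in the pull-down and 10.81 and 10.99 in Control. All 3 pull-down arrays were above both Control arrays, by as little as the gap from 11.07 to 10.99. The log2 fold change was 0.31 (SE 0.16, limma adjusted p = 0.255). The RefSeq table lists 10 pseudogenes of S100A11, and signal from transcripts of these copies cannot be told apart from that of the gene.

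S100A13 is needed for the release of FGF1 and interleukin 1α, proteins that leave the cell without passing through the Golgi. Its 3 probes gave different levels and no common direction. The brightest (ILMN_1765459) measured 11.82, 12.10 and 11.76 in the pull-down and 12.57 and 12.08 in Control. Control array 1 was highest, and Control array 2 fell just below pull-down array 2. The log2 fold change, -0.44 (SE 0.19, limma adjusted p = 0.189), was the lowest of the 9, at the 14.8th percentile of the log2 fold changes of all probes. The second probe (ILMN_2407168), annotated to the same transcript, measured 12.24, 11.90 and 11.51 in the pull-down and 11.95 and 11.79 in Control. Here the Control values lay within the range of the pull-down, and the log2 fold change was 0.01 (SE 0.22, limma adjusted p = 0.981). The third (ILMN_1814799), annotated to another transcript variant, measured 8.15, 7.89 and 8.17 in the pull-down and 8.07 and 8.30 in Control, in the dimmest 25% of all probes, with a log2 fold change of -0.12 (SE 0.15, limma adjusted p = 0.634).

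The first minus the second S100A13 probe came to -0.42, 0.20 and 0.25 on the pull-down arrays and 0.62 and 0.29 on the Control arrays. These differences did not overlap between the groups, with means of 0.01 in the pull-down and 0.45 in Control. Two-sided exact permutation tests of the 3 probe pairs gave p = 0.3, 0.5 and 0.7, and 0.8 for each after Benjamini-Hochberg adjustment together with the S100A10 pair, and with 3 and 2 arrays no pair could have passed. The span of S100A13 in the RefSeq table overlaps those of S100A1 and CHTOP, and from the annotation alone it could not be seen whether a probe also reads one of these.

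S100A16, a widely expressed member that promotes fat cell formation in mice, measured 10.001, 10.06 and 9.62 in the pull-down and 10.49 and 9.91 in Control. Control array 1 was highest and pull-down array 3 lowest, with the remaining values close together. The log2 fold change was -0.31 (SE 0.23, limma adjusted p = 0.413), and it was -0.60 without Control array 2 and -0.01 without Control array 1.

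S100A3, a cysteine-rich member known from the hair cuticle that binds zinc as well as calcium, had the largest difference of the 9 probes. It measured 8.73, 8.58 and 8.48 in the pull-down and 8.16 and 8.04 in Control. All pull-down arrays were higher than both Control arrays, and the gap between the groups exceeded the spread within either. The means were 8.60 ± 0.13 on pull-down arrays (SD, n = 3) and 8.10 ± 0.09 on Control arrays (SD, n = 2). The difference just missed the threshold (log2 fold change 0.50, SE 0.13, limma adjusted p = 0.054) and is 1.41-fold if the scale is plain log2. Leaving out 1 array at a time kept the log2 fold change between 0.43 and 0.56, and limma did not call it without any 1 pull-down array. Limma called S100A3 higher with an intensity trend in the prior variance (adjusted p = 0.0292) and with array weights (adjusted p = 0.0381). Over all 14747 probes, calls rose from 2172 to 2680 with the trend and to 3128 with the weights. The probe lay at the 29.6th percentile of mean values, so its signal was low, and its detection above background was not examined.

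**Figure D3:**
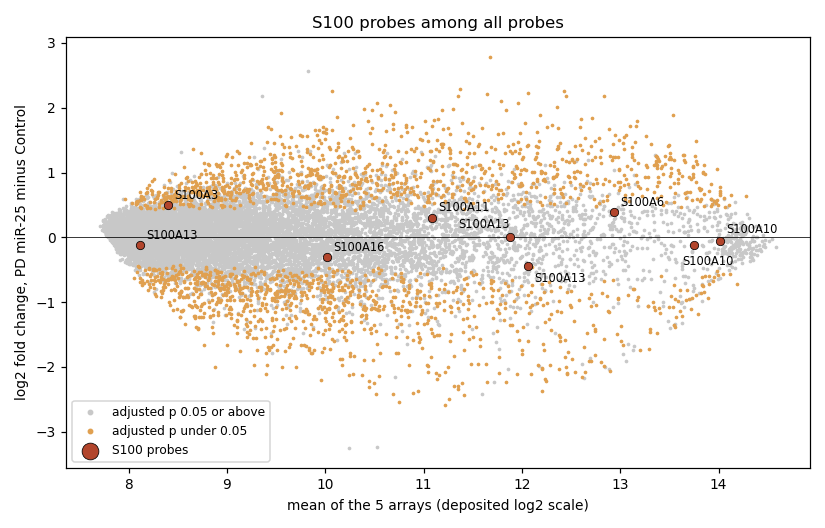
Log2 fold change, PD miR-25 minus Control (y axis), of all 14747 probes against the mean of the 5 arrays (x axis, deposited log2 or log2-like scale). Orange points passed an adjusted p under 0.05 and the 9 S100 probes are outlined. The S100 probes spread over nearly the whole scale and lie between -0.44 and 0.50.

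Of the 9 S100 probes, 5 lay between the 90th and 99th percentile of mean values: S100A6, both probes of S100A10 and 2 of S100A13. In that band limma called 35.9% of 1327 probes, 23.7% higher and 12.3% lower, and 0 of the 5 S100 probes.

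For the S100 probes, differences between replicates were large beside those between the groups. By the study's methods, lysate and pull-down came from the same cultures, but the labels do not say which arrays pair. Differences between cultures were therefore not separated from other spread. Control arrays 1 and 2 differed by more than the group difference for 7 of the 9 S100 probes, against 35.5% of all probes. The pull-down arrays spanned more than the group difference for 7 of 9, against 57.7%. For S100A3 alone were both within-group differences smaller, at 0.12 between the Control arrays and 0.26 across the pull-down arrays, as was so for 37.8% of all probes. Control array 1 was above Control array 2 for 7 of 9, against 49.7% of all probes, by 0.70 for S100A6 and 0.59 for S100A16, and it was below for S100A11 and the dim S100A13 probe.

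**Figure D4:**
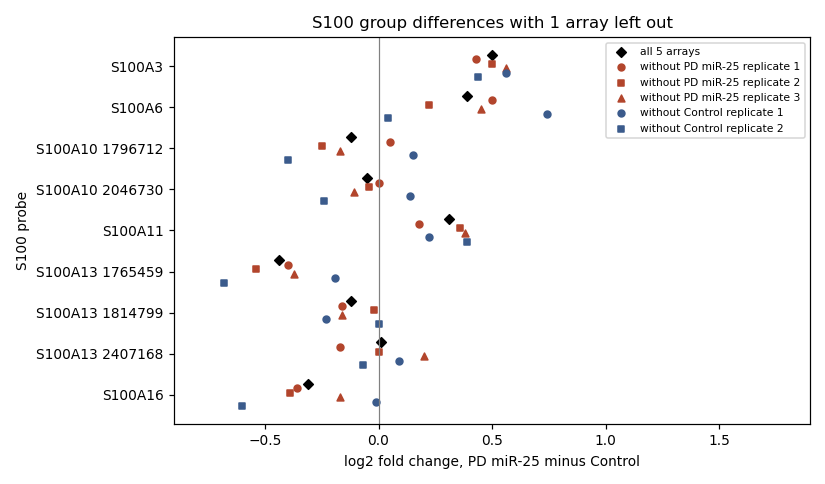
Log2 fold change, PD miR-25 minus Control (x axis), of the 9 S100 probes (y axis) with all 5 arrays (black) and with 1 array left out (red, a pull-down array; blue, a Control array). S100A3 stays between 0.43 and 0.56, while S100A6 runs from 0.04 to 0.74 and S100A16 from -0.60 to -0.01.

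Among the genes of S100 binding partners, 17 of 24 listed were measured by the brightest probe of each gene, and limma called 1 higher and 1 lower, or 11.8% against 14.7% of all probes. Both encode proteins that bind S100A6. SUGT1, a cochaperone of HSP90, measured 9.66, 9.50 and 9.28 in the pull-down and 8.49 and 8.55 in Control, with every pull-down array above both Control arrays. Its log2 fold change was 0.96 (SE 0.15, limma adjusted p = 0.0172). CACYBP, which bridges S100A6 to a ubiquitin ligase complex that degrades β-catenin, measured 10.70, 10.51 and 10.31 in the pull-down and 11.54 and 11.14 in Control. All pull-down arrays were below both Control arrays, with a log2 fold change of -0.84 (SE 0.18, limma adjusted p = 0.0365). The log2 fold change of SUGT1 was 0.93 without Control array 1 and 1.00 without Control array 2. It was uncalled without pull-down array 2 (limma adjusted p = 0.0617), where limma called 387 of all probes, against 2172 with all 5 arrays. That of CACYBP was -0.63 without Control array 1 and -1.04 without Control array 2. CACYBP was uncalled without pull-down array 2 (limma adjusted p = 0.0964) or pull-down array 3 (limma adjusted p = 0.0952, with 912 of all probes called).

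The annexin partners of the S100 proteins did not pass. ANXA2, the partner of S100A10, measured 14.15, 13.83 and 13.97 in the pull-down and 14.32 and 14.14 in Control, a log2 fold change of -0.25 (SE 0.14, limma adjusted p = 0.291), and its other probes gave -0.02 and 0.06. ANXA1, the partner of S100A11, measured 12.44, 12.63 and 12.55 in the pull-down and 12.09 and 12.20 in Control. These groups did not overlap, and the log2 fold change was 0.39 (SE 0.12, limma adjusted p = 0.0814). ANXA11, a partner of S100A6, had a log2 fold change of 0.02 (SE 0.19). Of 8 annexins measured of 12 listed, limma called 1 higher, or 12.5% against 14.7% of all probes. It was ANXA3 (log2 fold change 0.73, SE 0.18, adjusted p = 0.0487), which was uncalled under quantile or cyclic loess normalization. It was also uncalled without pull-down array 1, 2 or 3, where limma called 2389, 387 and 912 of all probes. Its log2 fold change was 0.56 without Control array 1 and 0.90 without Control array 2. ANXA4 was next highest at 0.45 (limma adjusted p = 0.0978), and after ANXA2 the lowest was ANXA5 at -0.17 (limma adjusted p = 0.638).

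Some partners varied by probe. AHNAK, a giant scaffold protein that joins S100A10 and annexin A2, measured -0.40 (SE 0.30, limma adjusted p = 0.409) as a log2 fold change by its brightest probe. Its other probes gave -1.11 (limma adjusted p = 0.0249) and -1.18 (limma adjusted p = 0.0101), both called lower. NCL, which encodes nucleolin, gave -0.63 (SE 0.16, limma adjusted p = 0.0516) by its brightest probe and -0.99 (limma adjusted p = 0.0137), called lower, by the other. LMNA, which encodes lamins A and C, gave 0.25 and -0.45, neither called. MYH9, the heavy chain of nonmuscle myosin that S100A4 binds, gave -0.63 (SE 0.33, limma adjusted p = 0.254), and its other probe -0.64. IL1A and FGF1, the cargo of S100A13, gave 0.59 (SE 0.28, limma adjusted p = 0.221) and -0.04 (SE 0.11, limma adjusted p = 0.834). PLAT, the plasminogen activator that S100A10 helps to localize, had the lowest value among the brightest probes of the list at -1.07 (SE 0.48, limma adjusted p = 0.195).

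**Figure D5:**
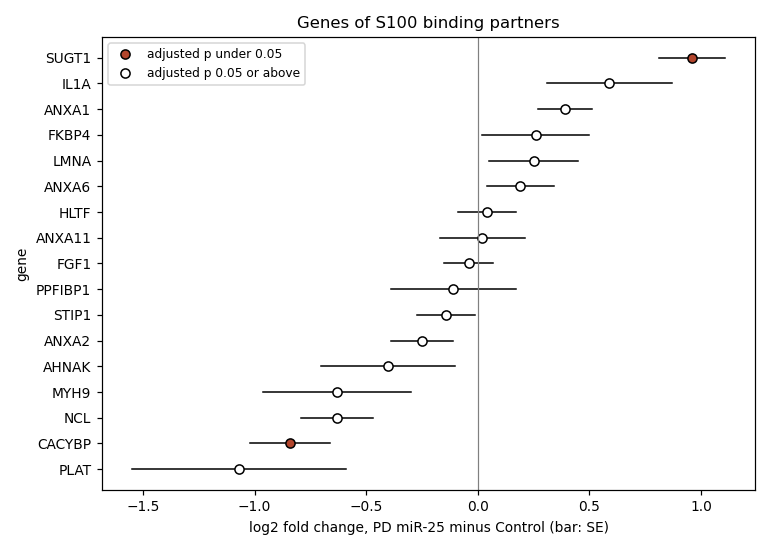
Log2 fold change, PD miR-25 minus Control (x axis), of the 17 measured genes of S100 binding partners (y axis), brightest probe of each; bars are the SE and filled points have an adjusted p under 0.05. SUGT1 at 0.96 and CACYBP at -0.84 are the filled points.

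Of 40 measured genes for EF-hand proteins outside the S100 family, limma called 4 higher and 1 lower, or 12.5% against 14.7% of all probes, with a median log2 fold change of 0.02. The highest were CIB1 (1.07, adjusted p = 0.0406), a calcium- and integrin-binding protein, and sorcin, SRI (0.99, adjusted p = 0.0164), whose other probes gave 0.84 (adjusted p = 0.0582) and 0.24 (adjusted p = 0.31). The lowest were ACTN4 (-1.15, adjusted p = 0.0727), an actin crosslinker, and SPARC (-1.03, adjusted p = 0.311), a matrix protein. The gene called lower was RCN2, a calcium-binding protein of the endoplasmic reticulum, named after its value was seen (-1.01, adjusted p = 0.0128). Without pull-down array 2, limma called 0 of the 40 higher and 1 lower, RCN2 (adjusted p = 0.0474), and 387 of all probes. After cyclic loess it called 2 of the 40 higher and 3 lower, and CIB1 was uncalled (adjusted p = 0.0543). The log2 fold changes of the 5 genes called in the main fit kept their sign when Control array 1 or Control array 2 was left out. That of SRI was 1.02 without Control array 1 and 0.95 without Control array 2. That of RCN2 was -0.97 without Control array 1 and -1.05 without Control array 2.

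Small proteins abundant in fibroblast-like cells were set beside the bright S100 probes. Of 22 genes measured, 20 lay in the brightest 25% of all probes and 9 near the top. Limma called 2 higher and 1 lower by the brightest probe, or 13.6% against 14.7% of all probes, with a median log2 fold change of -0.05. The share called varied with level. It was 1.87% in the dimmest 25% of all probes, 35.9% between the 90th and 99th percentile and 2.70% in the highest 1%. Neither this list nor the others were matched for level. MIF, a cytokine, was higher (1.26, adjusted p = 0.0159), as was LGALS3, which encodes galectin 3 (1.15, adjusted p = 0.0298). CSTB, the inhibitor cystatin B, was lower (-0.92, adjusted p = 0.0164), and CRIP2 gave the next lowest value (-0.34, adjusted p = 0.261). MIF, LGALS3 and CSTB were uncalled without pull-down array 2, where limma called 387 of all probes, against 2172 with all 5 arrays. Their log2 fold changes kept their sign when Control array 1 or Control array 2 was left out. That of LGALS3 was 1.24 without Control array 1 and 1.05 without Control array 2. Dimmer probes of 2 uncalled genes passed, chosen after their values were seen: TPT1, a translationally controlled protein, at 1.13 (adjusted p = 0.0275; brightest probe 0.01) and TAGLN, the actin-binding transgelin, at -1.12 (adjusted p = 0.0448; brightest probe -0.23).

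Of 12 other S100 genes listed, S100A14 was the 1 with a probe among the values used here, in the dimmest 25% of them. It measured 8.09 ± 0.18 (SD, n = 3) on pull-down arrays and 7.98 ± 0.04 (SD, n = 2) on Control arrays. Its log2 fold change was 0.11 (SE 0.14, limma adjusted p = 0.635). Among the 45 genes within 10 gene positions of a member on chromosome 1, 6 were measured, and limma called 0 of them, against 14.7% of all probes. Their log2 fold changes ran from -0.07 (INTS3) to 0.52 (ILF2, limma adjusted p = 0.0645).

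Genes with the pattern most like an S100 probe were taken by Pearson correlation over the 5 arrays, as a description, since many genes correlate closely over so few arrays. For the brightest S100 probe (S100A10, ILMN_2046730) they were DENND4A, AHCY and ZNF337, with r from 0.976 to 0.984 and log2 fold changes of 0.00, -0.07 and -0.07. For S100A3 they were PCCA, SMIM3 and TIMMDC1, each with r above 0.999, and their log2 fold changes were 0.42, 0.44 and 0.15.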

How the data were processed

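The authors hybridized cRNA to Illumina HT-12 arrays, exported the data from GenomeStudio and normalized them with lumi. The deposited values are log2 or log2-like: the transform, plain log2 or the variance-stabilizing one of lumi, was not given in the sources used here. Variance stabilization would understate changes of dim probes. The tools named in the submitters' processing notes, lumi and limma, come without versions. One more lysate array, which the study set aside for weak detection, was not analysed here. The non-normalized signals were left out, since none of their 10 per-sample columns carries a name that matches a label, and background and detection were not examined.

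Probe symbols came from GEO's platform annotation. It names 11970 of the 14747 probes by 1 symbol, gives several for 1 and none for 2776, and the RefSeq table of GRCh38.p14 held the gene ID of 11963 named probes and updated 0 symbols. For genes other than the S100 genes the probe with the highest mean was used. PD miR-25 was compared with Control over all probes in limma 3.58.1 (R 4.3.3; lmFit, eBayes), two-sided. P-values were adjusted by Benjamini-Hochberg over all probes, with 3 residual plus 2.75 prior degrees of freedom. The fit was tested on simulated data. It called 57 of 100 probes changed by 1 log2 unit and 93 of 100 changed by 2. None of these had the wrong sign, and 12 unchanged probes were called. The study describes independent biological replicates, and the number of arrays limits precision. The main fit did not pair lysate with pull-down. The S100 genes and the gene lists were chosen with earlier results of these data known. Named genes were all S100 probes, the 2 highest and 2 lowest of each other list, binding partners by role, and genes most like an S100 probe. Marker lists are given as counts. Alternatives covered normalization, a filter on dim probes, trend, array weights, a replicate block, 2-fold thresholds, the probe per gene and leaving out each array.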

Additional observations from a re-analysis of the deposited data

How the results depend on the processing

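The count of S100 probes called lower was 0 under every alternative run. The count called higher was 0 except with an intensity trend and with array weights, where it was 1 each, S100A3. The median log2 fold change of the 9 probes, -0.05, was -0.16 after cyclic loess, -0.01 with array weights and -0.11 with a replicate block, and it ran from -0.11 to 0.14 when 1 array was left out. Taken over 1 probe for each of the 6 genes, the median was 0.13, and it was 0.03 after cyclic loess and ran from -0.10 to 0.18 when 1 array was left out. Within 1.0 of the highest value of an array, 2 probes counted as near the top, and by a mean in the highest 1% of probes 0 did. Cyclic loess moved the median of all probes from 0.04 to 0.00. The number of calls over all probes, 2172, was 215 with the replicate block, 3128 with array weights, 387 without pull-down array 2, 912 without pull-down array 3, 91 without Control array 2 and 0 without Control array 1 (2958 at an unadjusted p under 0.05), and 0 by limma treat against a 2-fold change (346). Deviations of arrays with the same replicate number gave r = 0.04 for number 1 and -0.43 for number 2 across probes. The 2 Control deviations mirror each other, so these r cannot show which arrays share a culture. The highest r were 0.43 for pull-down array 2 with Control array 1 and 0.48 for pull-down array 3 with Control array 2. The study drew its lysate samples from the transfected cells ahead of the pull-down, so lysate and pull-down arrays share cultures. Which arrays belong together is not given, so the block by number may join arrays from different cultures. Background correction of the non-normalized signals was not run, because their columns match no label.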
